A study of Mus musculus with 20 samples.

Results

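A set of 9 genes of the p53 and senescence pathways was followed through chemical reprogramming of mouse fibroblasts. They were chosen by symbol, out of 47643 genes in the count table, and all 9 were found and passed the filter on low counts. They were the transcription factor gene Trp53, its inhibitor Mdm2, the p53 targets Cdkn1a, Ccng1, Phlda3, Bax and Bbc3, and the neighbouring senescence genes Cdkn2a and Cdkn2b.

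The p53 protein is a transcription factor that stress stabilises, and it drives genes that halt the cell cycle or start apoptosis. Mdm2 is both a p53 target and the ubiquitin ligase that removes p53, so the pair forms a negative feedback loop. Cdkn2a gives rise to 2 proteins from separate starts, the CDK4/6 inhibitor INK4A and ARF, which binds Mdm2. Both p53 and the Ink4/Arf locus are known as barriers to the reprogramming of fibroblasts by transcription factors.

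The study turned mouse embryonic fibroblasts (MEFs) into chemically induced pluripotent stem (CiPS) cells, and asked how crotonic acid, a short-chain fatty acid, promotes this. All cells were of strain B6DBA, and the labels name no genetic modification. There was 1 library of MEFs, 2 of untreated reprogramming cells at each of days 16, 20, 24 and 28, and 2 at each of days 20, 24 and 28 of cultures that received 6 to 8 mM crotonic acid in the medium from day 16 until day 28. The pluripotent libraries came from 2 CiPS lines made with crotonic acid, 1 CiPS line of the three-step method, and 1 line of embryonic stem (ES) cells. Each library held between 17475848 and 26609755 counted reads. Nothing in the labels states that replicate libraries are separate cultures; the p-values therefore cover the spread among these samples, possibly technical, and a group of 1 library was assumed to vary like the others. The samples were bulk RNA, so fewer cells of a type and less RNA per cell cannot be told apart.

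Marker genes were checked against the labels. Pluripotency markers summed to 2.96 CPM (counts scaled to a common library size) in MEFs, where 6 of 10 were at 0, and to 3871 to 4569 CPM in the CiPS and ES lines. Fibroblast markers summed to 69518 CPM in MEFs and to 1526 to 6136 CPM in the reprogramming libraries. They summed to 10966 to 16688 CPM in the pluripotent lines, which was 15.8% to 24.0% of the MEF level, with none of 10 at 0. Macrophage markers summed to 202 CPM in MEFs, to 82.4 to 328 CPM in the pluripotent lines and to at most 51.6 CPM in the reprogramming libraries. Liver transcripts summed to 46.9 CPM in the second crotonic acid library of day 20, to 137 CPM in the first of day 28 and to 84.5 CPM in MEFs, against at most 23.2 CPM elsewhere.

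The promoter windows of the members, 250 bases before to 50 bases after each RefSeq start on GRCm38.p6, were searched on both strands for the p53 full site, a pair of 10-base half-sites. At most 3 mismatches were allowed, and the C and the G that bound the core of each half-site had to be intact. The bases between that C and G could mismatch, as in the Ccng1 site. A match was found in 4 of the 13 windows of the 9 genes, against 1.38% of 32851 windows of all genes. The 4 excerpts are shown because they hold a match to the p53 full site, with the matched site in capitals. Whether p53 binds these excerpts was not tested. They lie at chr17:29090898-29090977 (plus strand, Cdkn1a), chr11:40755432-40755511 (minus strand, Ccng1), chr7:16309456-16309535 (plus strand, Bbc3) and chr11:69580254-69580333 (plus strand, Trp53).
Cdkn1a: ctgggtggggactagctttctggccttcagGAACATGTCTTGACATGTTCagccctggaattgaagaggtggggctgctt
Ccng1: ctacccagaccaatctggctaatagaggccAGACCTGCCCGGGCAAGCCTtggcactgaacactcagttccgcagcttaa
Bbc3: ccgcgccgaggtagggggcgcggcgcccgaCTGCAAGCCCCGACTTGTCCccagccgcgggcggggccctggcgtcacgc
Trp53: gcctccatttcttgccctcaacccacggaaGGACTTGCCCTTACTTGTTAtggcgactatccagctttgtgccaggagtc
The Cdkn1a and Ccng1 sites had 1 mismatch each, and the Bbc3 and Trp53 sites had 3 each. The sites began 51 (Cdkn1a), 195 (Ccng1), 97 (Bbc3) and 75 (Trp53) bases before the start of the window that held them. Cdkn1a and Bbc3 also have other RefSeq starts, and the windows of those starts held no match. No match in the other windows says only that these letters are not in them.

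The Ink4/Arf locus was searched for the E2F motif TTTCCCGC, since E2F factors are known to act on the ARF start. On either strand, it was found in the window of the upstream (ARF) start of Cdkn2a and not in that of the INK4A start, against 1.07% of all windows. The excerpt lies at chr4:89294681-89294748 on the minus strand, with the motif in capitals.
Cdkn2a, ARF start: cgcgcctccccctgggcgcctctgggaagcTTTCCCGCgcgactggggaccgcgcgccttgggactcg
In the GENCODE M21 annotation the INK4A and ARF transcripts measured 852 and 895 bases and shared 575. Counts per gene therefore give the sum of both, and no value below separates INK4A from ARF.

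**Figure D1:**
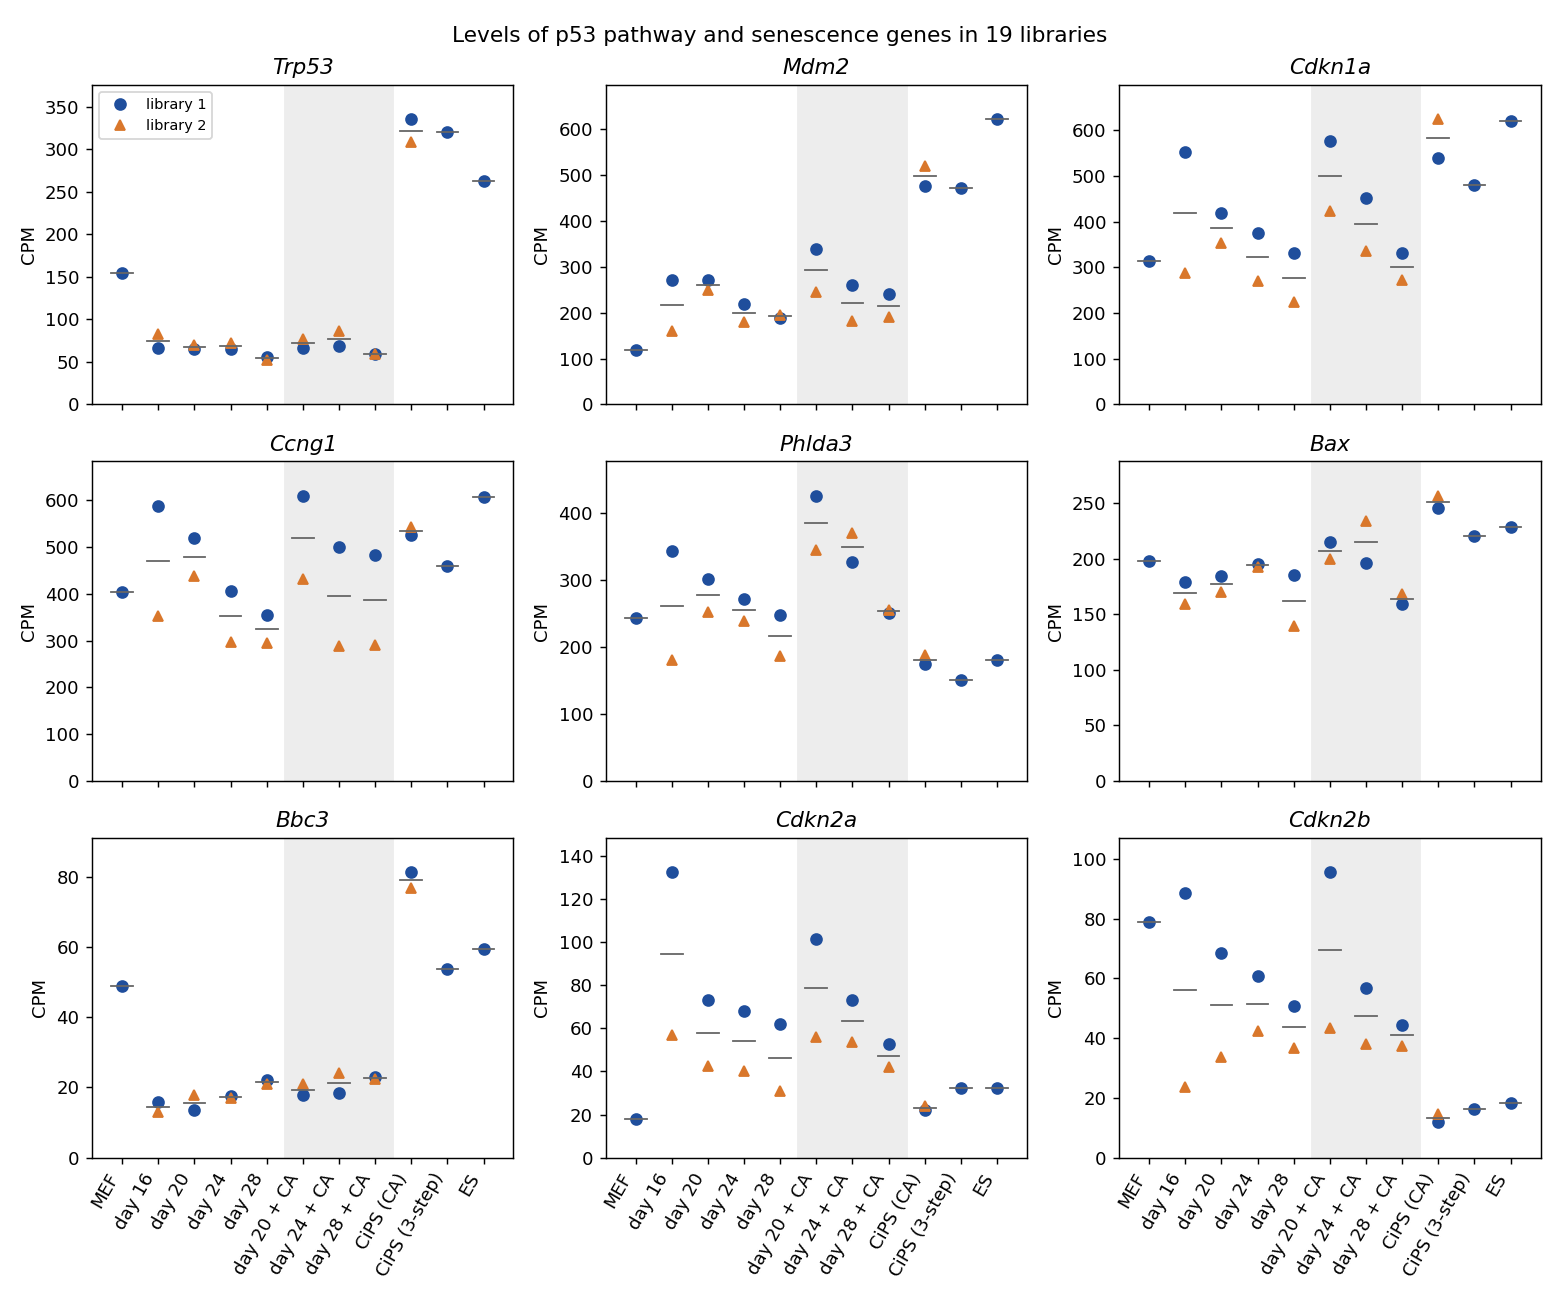
Levels of the 9 genes in each of 19 libraries, in CPM on linear axes from 0, with libraries of replicate number 1 as circles and number 2 as triangles and the group mean as a line; shaded columns are the crotonic acid groups. Trp53 and Bbc3 were lower in every reprogramming library than in MEFs, ES cells and the 3 CiPS lines. The group mean of Cdkn2a was highest at day 16, where its 2 libraries stood at 133 and 57.0 CPM.

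From MEFs to day 16, Trp53 and Bbc3 fell, and Mdm2 and Cdkn2a rose. These were 4 of the 9 genes, and 32.7% of all 19597 genes tested passed in either direction (17.4% higher and 15.3% lower). Values after ± are standard errors of log2 fold changes, and p was adjusted over all genes (Benjamini-Hochberg) in edgeR's quasi-likelihood test, with a threshold of 0.05.

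Trp53 stood at 154 CPM in MEFs and at 66.2 and 82.9 CPM in the first and second day 16 libraries, a fall by 1.05 ± 0.17 (adjusted p = 0.000425). Mdm2 stood at 118 CPM in MEFs and at 272 and 161 CPM at day 16, a rise by 0.87 ± 0.31 (adjusted p = 0.0434). Both day 16 libraries lay below MEFs for the transcription factor and above them for its inhibitor. How many of all genes had both day 16 libraries on the same side of the MEF library was not counted, here or below. The call of Mdm2 was lost without the first day 16 library (0.45, adjusted p = 0.228) and without both libraries of later days that held liver transcripts (0.86, adjusted p = 0.0515).

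Bbc3 encodes PUMA, a BH3-only protein that starts apoptosis. It stood at 48.8 CPM in MEFs and at 15.7 and 13.0 CPM at day 16, a fall by 1.77 ± 0.24 (adjusted p = 0.000154). Bax, the pore-forming effector of apoptosis, stood at 198 CPM in MEFs and at 179 and 159 CPM at day 16 (-0.23 ± 0.17, adjusted p = 0.341). Of these apoptosis genes, only the initiator passed the test.

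Cdkn1a, the CDK inhibitor that halts the cell cycle downstream of p53, stood at 314 CPM in MEFs and at 551 and 286 CPM at day 16 (adjusted p = 0.429). Ccng1, cyclin G1, which recruits a phosphatase to Mdm2, stood at 404 CPM in MEFs and at 589 and 353 CPM at day 16 (adjusted p = 0.715). Phlda3, which competes with AKT for membrane lipids, stood at 244 CPM in MEFs and at 342 and 180 CPM at day 16 (adjusted p = 0.849). For these 3 targets the MEF value lay between those of the day 16 libraries, and the first library was the higher one.

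Cdkn2a stood at 17.9 CPM in MEFs and at 133 and 57.0 CPM at day 16, a rise by 2.40 ± 0.63 (adjusted p = 0.0105). Its neighbour Cdkn2b, which encodes the CDK4/6 inhibitor INK4B, stood at 78.9 CPM in MEFs and at 88.8 and 23.6 CPM at day 16 (-0.49 ± 0.63, adjusted p = 0.597). Both day 16 libraries were above MEFs for Cdkn2a, while those for Cdkn2b lay on either side. Each value moved with 1 library: Cdkn2a rose by 1.67 without the first day 16 library (adjusted p = 0.0412) and by 2.89 without the second (adjusted p = 0.00353), and Cdkn2b fell by 1.74 without the first (adjusted p = 0.0301) but differed by 0.17 without the second (adjusted p = 0.875). Fibroblast markers summed to 6136 CPM in the first day 16 library and to 1735 CPM in the second, and proliferation markers to 963 and 1828 CPM; their part in these results was not tested.

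Among 35 other p53 targets, 10 passed the test with higher and 3 with lower levels at day 16 than in MEFs, beside 17.4% and 15.3% of all genes; 24 of the 35 estimates were above 0, with a median change of 0.37 against 0.03 over all genes. Cyfip2, an actin regulator, rose by 4.19 ± 0.63, and Perp, an epithelial junction protein, rose by 3.93 ± 0.58. Pidd1, a death domain adaptor, rose by 1.93 ± 0.20, Ppm1d, a phosphatase that damps p53 signalling, rose by 1.60 ± 0.28, and the growth arrest gene Gadd45a rose by 0.93 ± 0.15. Plk2, a polo-like kinase, fell by 1.69 ± 0.17. Of 20 tested p53 regulators 3 rose and 2 fell; the kinase genes Chek2 and Hipk2 rose by 0.96 ± 0.23 and 1.20 ± 0.31, and the ubiquitin ligase gene Cop1 fell by 0.86 ± 0.13.

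Among 15 regulators of the Ink4 locus, 4 rose and 4 fell. Cbx7, a Polycomb protein that represses the locus, rose by 2.56 ± 0.35, and Ets1, an activator of INK4A, fell by 2.02 ± 0.30. Of 18 genes of the CDK inhibitor and RB pathway 3 rose and 2 fell, among them the CDK inhibitor Cdkn1c, which fell by 1.43 ± 0.23. Of 12 BCL2 family genes 1 rose and 3 fell, and the survival gene Bcl2 fell by 1.63 ± 0.37. Of 27 senescence-associated secreted and marker genes 2 rose and 7 fell, with a median of -0.73, and the chemokine Cxcl12 fell by 5.19 ± 0.41. That list joins secreted factors with nuclear genes such as Lmnb1, Hmgb1 and Hmgb2. Its counts, here and below, do not measure senescence. Scaling by library totals moved the median of all genes to 0.36 and the split of all calls from 3416 higher and 2995 lower to 5345 and 1812, while no called member changed direction.

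**Figure D2:**
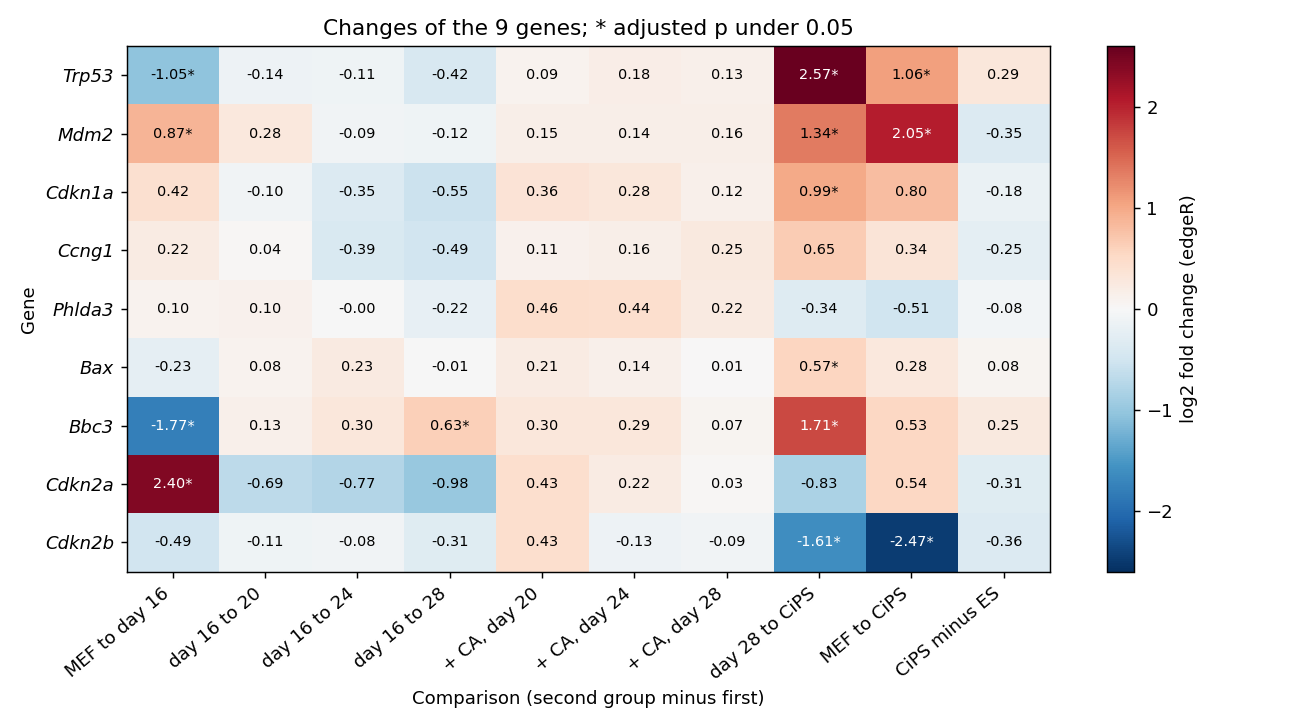
Log2 fold change of each gene in 10 comparisons, second group minus first, with an asterisk where the adjusted p of edgeR's test was under 0.05. Asterisks stand on 4 genes from MEFs to day 16 and on 6 from day 28 to the CiPS lines, and on none in the 3 crotonic acid columns.

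Between day 16 and day 28 of untreated reprogramming few of the 9 genes passed the test unless the replicate number was taken into account. Without it, none of the 9 genes passed at day 20 or day 24, with 2.23% and 8.08% of 17387 genes passing and none of the 9 at an unadjusted p under 0.05. DESeq2 called none of them on either day. At day 28 Bbc3 alone passed (16.9% of all genes did). It stood at 15.7 and 13.0 CPM at day 16, at 13.4 and 17.8 CPM at day 20, at 17.6 and 17.0 CPM at day 24 and at 22.0 and 21.0 CPM at day 28, a rise by 0.63 ± 0.19 over the whole span (adjusted p = 0.0441). The day 28 libraries lay above all earlier ones, but the call was lost when any 1 of the 4 libraries of days 16 and 28 was left out (adjusted p = 0.0616 to 0.151).

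Same-numbered libraries shared part of their spread, and a fit with the number as a block called 5 of the 9 genes at day 28, when it called 31.0% of all genes (16.8% higher and 14.2% lower). Cdkn2a fell by 0.96 ± 0.17 (adjusted p = 0.00199), from 133 and 57.0 CPM at day 16 to 62.0 and 30.7 CPM. Cdkn1a fell by 0.52 ± 0.14 (adjusted p = 0.0168), from 551 and 286 CPM to 330 and 223 CPM. Each numbered library fell, although the groups overlapped.

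With the block Ccng1 fell by 0.45 ± 0.15 (adjusted p = 0.0400), from 589 and 353 CPM to 354 and 295 CPM, and Bbc3 rose by 0.62 ± 0.17 (adjusted p = 0.0174). Trp53 fell by 0.41 ± 0.12 (adjusted p = 0.0209), from 66.2 and 82.9 CPM to 55.4 and 52.8 CPM, and its groups did not overlap. Cdkn2a also fell with the block at day 20 (by 0.64 ± 0.17, adjusted p = 0.0409, 9.95% of all genes passing) and at day 24 (by 0.72 ± 0.17, adjusted p = 0.0144, 20.5% passing). The second libraries alone also stood lower at day 28 than at day 16 for Cdkn2a, Cdkn1a, Ccng1 and Trp53. In the fit with no block, leaving out the first day 16 library gave changes of -0.28 for Cdkn2a, -0.03 for Cdkn1a and -0.10 for Ccng1 to day 28; that fit compares a second library with libraries of both numbers, and the blocked fit without that library was not run. Without the 2 libraries that held liver transcripts the block called 3 genes at day 28 in place of 5, with Trp53 (adjusted p = 0.0516) and Ccng1 (0.0730) lost, and Cdkn2a was lost at day 20 (0.0547). Mdm2, Phlda3, Bax and Cdkn2b passed in neither fit.

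Among the wider lists, 2 of 35 p53 targets rose and 2 fell from day 16 to day 28 (4 and 8 with the block), with a median of -0.14 against 0.01 over all genes. Gdf15, a stress-induced secreted factor, rose by 1.29 ± 0.34, and Gadd45a fell by 0.85 ± 0.11. Of 18 genes of the CDK inhibitor and RB pathway none rose and 3 fell (none and 9 with the block), led by Cdkn1c, which fell by 2.76 ± 0.18 to 12.6 CPM. Of 24 tested senescence-associated genes none rose and 2 fell (none and 7 with the block), with a median of -0.67; Cxcl12 fell by 1.91 ± 0.35 and the adhesion molecule Icam1 by 1.99 ± 0.55. Of 15 Ink4 regulators 1 rose and 1 fell: Cbx7 rose by 1.21 ± 0.26, and Id1, which antagonises ETS factors at INK4A, fell by 1.70 ± 0.24. Fibroblast markers fell in 5 of 10 cases over the same span and 1 rose, and their part in these results was not tested.

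With crotonic acid none of the 9 genes passed the test on any day, and no gene of the 17387 did (0.0% passing on each of the 3 days; 585, 821 and 943 genes had an unadjusted p under 0.05 at days 20, 24 and 28, but none of the 9). DESeq2 and limma-voom called none of the 9 either. The mean effect over the 3 days was tested as well, and 0 of 9 passed against 1.04% of all genes, with 1 of the 9, Phlda3, at an unadjusted p under 0.05. With the block none of the 9 passed either, on any day or for the mean, and the number at an unadjusted p under 0.05 was 3 at day 20, 1 at day 24, 0 at day 28 and 4 for the mean. All 9 estimates of the mean effect were above 0, from 0.07 for Cdkn2b to 0.38 for Phlda3, with a median of 0.17 against -0.01 over all genes, of which 47.5% were above 0. The untreated libraries of these days also entered the comparisons with day 16.

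Phlda3 stood at 301 and 253 CPM without and at 425 and 344 CPM with crotonic acid at day 20. At day 24 it stood at 272 and 239 CPM without and at 326 and 370 CPM with it, and at day 28 at 248 and 186 CPM without and at 251 and 256 CPM with it. Every treated library lay above both untreated libraries of its day. The share of all genes whose groups lay apart in this way was not counted, here or in the other comparisons. The mean effect was 0.38 ± 0.15 (adjusted p = 0.318) and 0.39 ± 0.11 with the block (adjusted p = 0.0668); it passed in 1 setting, without the filter on low counts (adjusted p = 0.0330).

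Cdkn1a stood at 418 and 353 CPM without and at 575 and 424 CPM with crotonic acid at day 20, at 374 and 270 against 452 and 336 CPM at day 24, and at 330 and 223 against 331 and 272 CPM at day 28. The groups were apart at day 20 and overlapped at days 24 and 28, and the mean effect was 0.26 ± 0.18 (adjusted p = 0.651; with the block 0.26 ± 0.08, adjusted p = 0.0867). Bbc3 stood at 13.4 and 17.8 against 17.9 and 20.8 CPM at day 20, at 17.6 and 17.0 against 18.4 and 24.2 CPM at day 24, and at 22.0 and 21.0 against 22.8 and 22.5 CPM at day 28. Its treated libraries lay above the untreated ones on each day, by 0.22 ± 0.11 on average (adjusted p = 0.452).

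Among same-numbered libraries, Trp53, Cdkn1a, Phlda3 and Bbc3 were higher with crotonic acid in 6 of 6 pairs, as were 11.4% of 17531 genes. Bax and Cdkn2a were higher in 5 of 6 pairs (24.3% of genes were in 5 or 6), Mdm2 in 4, and Ccng1 and Cdkn2b in 3. The smallest of these differences were near 0: 0.01 for Cdkn1a and 0.02 for Phlda3 in the first pair of day 28. The mean effect on Trp53 was 0.13 ± 0.09 (adjusted p = 0.640) and that on Cdkn2a 0.23 ± 0.27 (adjusted p = 0.823). The effect at day 28 did not differ by the test from that at day 20 for any of the 9 genes (adjusted p = 1 for each, and none at an unadjusted p under 0.05).

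**Figure D3:**
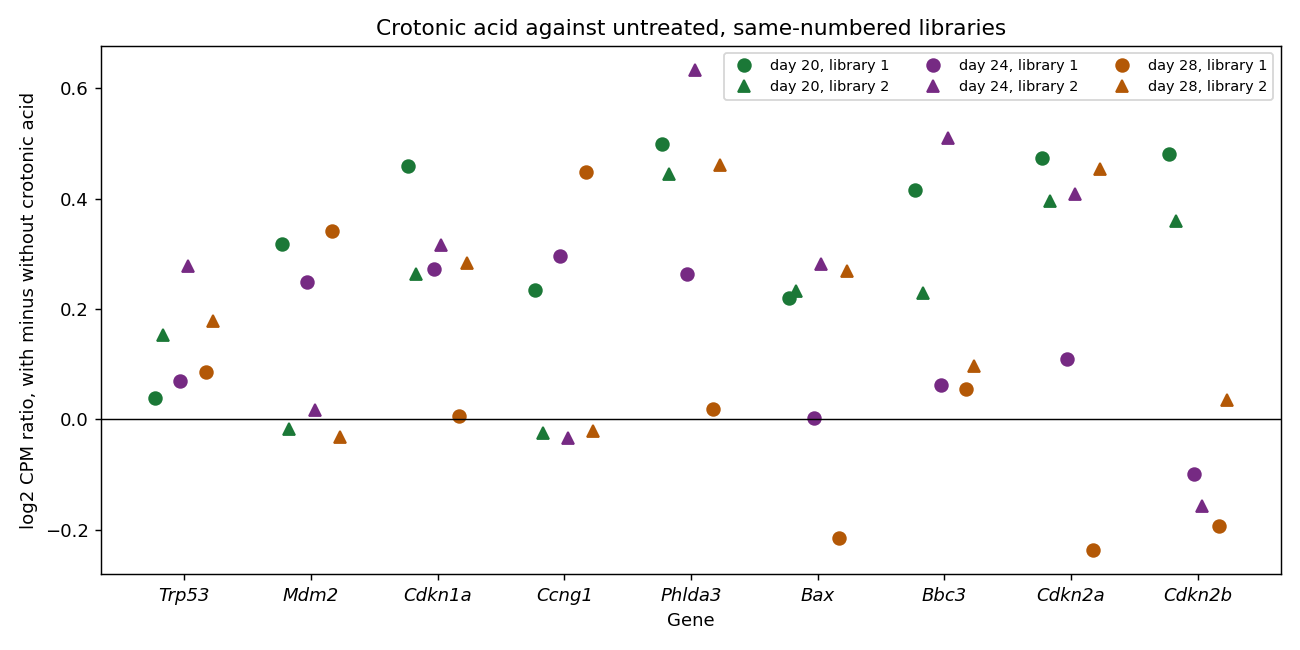
Log2 ratio of CPM with to without crotonic acid for each same-numbered pair of libraries, by gene; colour gives the day, circles the first and triangles the second library. All 6 points of Trp53, Cdkn1a, Phlda3 and Bbc3 lie above 0, and those of Ccng1 split with the 3 first libraries above and the 3 second libraries below 0.

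Of the 35 other p53 targets none passed for the mean effect of crotonic acid. Of these, 28 had estimates above 0, against 47.5% of all genes, with a median of 0.10 against -0.01. With the block 2 rose, Cyfip2 by 0.46 ± 0.11 (adjusted p = 0.0309) and Gdf15 by 0.58 ± 0.15 (adjusted p = 0.0465), when 7.42% of all genes passed. Of 20 tested p53 regulators none passed without the block and 1 fell with it. Only 2 of the 20 estimates were above 0, with a median of -0.07. None of 12 BCL2 family genes passed in either fit, and 6 estimates were above 0. In the fit with no block 1.04% of all genes passed. Of 18 genes of the CDK inhibitor and RB pathway none rose and 1 fell in that fit (2 and 3 with the block). This was Cdkn1b, a CDK inhibitor of the same family as Cdkn1a, which fell by 0.40 ± 0.07 (adjusted p = 0.0331). It stood at 82.7 to 96.3 CPM in the 6 untreated and at 58.0 to 75.8 CPM in the 6 treated libraries, with no overlap. Cdkn1b was named for its adjusted p in these same libraries, so their separation is no further support. How its call held with libraries left out is given below beside Id1.

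Of 15 Ink4 regulators 1 rose and none fell with crotonic acid in the fit with no block (2 and none with the block). This was Id1, which rose by 0.88 ± 0.13 (adjusted p = 0.0206). It stood at 103 and 90.7 CPM without and at 148 and 124 CPM with it at day 20, at 45.9 and 41.5 against 104 and 105 CPM at day 24, and at 39.6 and 27.7 against 70.7 and 55.5 CPM at day 28. Treated libraries were higher on each day, but Id1 was also named for its adjusted p in these same libraries. Leaving out 1 library in turn kept 3 of 12 calls for Id1 (adjusted p = 0.0211 to 0.0940) and 0 of 12 for Cdkn1b (0.0560 to 0.133), and leaving out both libraries with liver transcripts gave 0.129 and 0.218 at changes of 0.85 and -0.41.

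Of 24 tested senescence-associated genes none passed for the mean effect, and with the block 4 rose and 1 fell, led by the urokinase receptor gene Plaur (0.69 ± 0.10, adjusted p = 0.00387). Endoderm markers were lower in treated than in untreated libraries on each day. They summed to 17865 and 19288 CPM without and to 12891 and 15060 CPM with crotonic acid at day 20, and to 25642 and 32779 against 18521 and 20877 CPM at day 28. Proliferation markers summed to 1209 to 1651 CPM in the untreated and to 1126 to 1432 CPM in the treated libraries of days 20 to 28. The part of either in the differences above was not tested.

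From day 28 to the CiPS lines Trp53, Mdm2, Cdkn1a, Bax and Bbc3 rose and Cdkn2b fell. These were 6 of the 9 genes, a share near that of all genes, since 59.5% of all 19597 genes passed (29.1% higher and 30.4% lower). The lines are given in the order first and second crotonic acid line, then the three-step line.

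Trp53 stood at 55.4 and 52.8 CPM at day 28 and at 335, 309 and 321 CPM in the CiPS lines, a rise by 2.57 ± 0.14 (adjusted p = 1.82e-08). Mdm2 stood at 189 and 196 CPM at day 28 and at 476, 519 and 471 CPM in the lines, a rise by 1.34 ± 0.23 (adjusted p = 0.000258). Every line lay above both day 28 libraries for the factor and for its inhibitor. How many of all genes lay apart in this way was not counted.

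Cdkn1a stood at 330 and 223 CPM at day 28 and at 540, 624 and 480 CPM in the lines, a rise by 0.99 ± 0.28 (adjusted p = 0.00882) that was lost without the second day 28 library (0.73, adjusted p = 0.0992). Ccng1 stood at 354 and 295 CPM at day 28 and at 525, 544 and 460 CPM in the lines (0.65 ± 0.29, adjusted p = 0.0713), and passed with DESeq2 (adjusted p = 0.0448). Phlda3 stood at 248 and 186 CPM at day 28 and at 174, 188 and 151 CPM in the lines (-0.34 ± 0.22, adjusted p = 0.202). Among the growth-restraining targets, then, the lines lay above day 28 for Cdkn1a and Ccng1 but overlapped it for Phlda3.

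Bax stood at 185 and 140 CPM at day 28 and at 245, 257 and 220 CPM in the lines, a rise by 0.57 ± 0.13 (adjusted p = 0.00267). Bbc3 stood at 22.0 and 21.0 CPM at day 28 and at 81.2, 76.9 and 53.6 CPM in the lines, a rise by 1.71 ± 0.20 (adjusted p = 1.14e-05). Both apoptosis genes were above day 28 in every line, and Bbc3 was lower in the three-step line than in either crotonic acid line.

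Cdkn2b stood at 50.8 and 36.6 CPM at day 28 and at 11.8, 14.6 and 16.3 CPM in the lines, a fall by 1.61 ± 0.48 (adjusted p = 0.0111), lost without the first day 28 library (-1.36, adjusted p = 0.0764). Cdkn2a stood at 62.0 and 30.7 CPM at day 28 and at 21.9, 24.0 and 32.2 CPM in the lines (-0.83 ± 0.41, adjusted p = 0.0967), and passed without the second day 28 library (-1.25, adjusted p = 0.0396). The lines lay below both day 28 libraries for Cdkn2b, and the three-step line overlapped them for Cdkn2a.

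Compared with MEFs, 3 of 9 genes differed in the CiPS lines, and 53.1% of all genes passed (25.7% higher and 27.4% lower). Trp53 was higher by 1.06 ± 0.17 (adjusted p = 0.000249), Mdm2 was higher by 2.05 ± 0.32 (adjusted p = 0.00017) and Cdkn2b was lower by 2.47 ± 0.56 (adjusted p = 0.00248). In the 3 lines Trp53 stood at 200% to 218% of the MEF level and Mdm2 at 400% to 440%. Cdkn2b stood at 14.9% to 20.7% of the MEF level, beside 15.8% to 23.1% for the summed fibroblast markers, and Cdkn2a at 122% to 179%; the part of fibroblast RNA in these levels was not tested. Scaling by library totals moved the median of all genes to 0.29, the split of all calls from 5028 higher and 5377 lower to 6292 and 4183, and the members called from 3 to 6, with no member reversed.

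The lines did not differ from ES cells by the test for any of the 9 genes (adjusted p = 1 for each, none at an unadjusted p under 0.05, 0.0204% of all genes passing, and none of the 9 called by DESeq2). Estimates ran from -0.36 for Cdkn2b to 0.29 for Trp53. In the ES library Trp53 stood at 263 CPM, Mdm2 at 622 CPM, Cdkn1a at 619 CPM and Bbc3 at 59.5 CPM. Cdkn2a stood at 32.2 CPM and Cdkn2b at 18.3 CPM there. With 1 ES library, a small difference was not detectable.

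Of the 35 other p53 targets, 14 rose and 8 fell from day 28 to the lines (median 0.22 against 0.02 over all genes), and 11 rose and 3 fell from MEFs to the lines (median 0.41). Epha2, a receptor tyrosine kinase, rose by 1.92 ± 0.20 from day 28 to 315 CPM, and Sesn2, a stress-induced inhibitor of mTORC1, rose by 1.61 ± 0.18 to 367 CPM. Trp53inp1, a nuclear cofactor of p53, rose by 1.57 ± 0.21 to 531 CPM, the kinase gene Plk3 rose by 2.08 ± 0.29, and Gadd45a fell by 0.70 ± 0.11. Of 20 tested p53 regulators 14 rose and 1 fell. Sirt1, which deacetylates p53, rose by 3.01 ± 0.20, Usp7, which deubiquitinates Mdm2 and p53, rose by 1.75 ± 0.14, and the acetyltransferase gene Ep300 rose by 1.19 ± 0.12.

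Of 15 Ink4 regulators 7 rose and 4 fell from day 28 to the lines. The repressor Cbx7 rose by 2.74 ± 0.22, from 23.1 to 155 CPM on average, while its relative Cbx8 fell by 1.96 ± 0.19 and the T-box repressor Tbx2 fell by 5.29 ± 0.41. Of 18 genes of the CDK inhibitor and RB pathway 6 rose and 5 fell; the CDK inhibitors Cdkn1c and Cdkn2c fell by 3.23 ± 0.21 and 2.42 ± 0.22, and E2f1 rose by 1.65 ± 0.16. Of 12 BCL2 family genes 5 rose and 2 fell, led by the survival gene Mcl1, which rose by 1.54 ± 0.10 to 846 CPM. Of 27 senescence-associated genes 12 rose and 6 fell from day 28, and 5 rose and 11 fell from MEFs. As above, these counts mix secreted factors with nuclear genes and do not measure senescence. Igfbp3, a growth factor binding protein, fell by 4.94 ± 0.38 from MEFs. Fibroblast markers rose in 6 of 10 cases and fell in 1 from day 28 to the lines. Proliferation markers rose in 7 of 10 and fell in none, when 29.1% of all genes were called higher and 30.4% lower. The part of either in these counts was not tested.

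**Figure D4:**
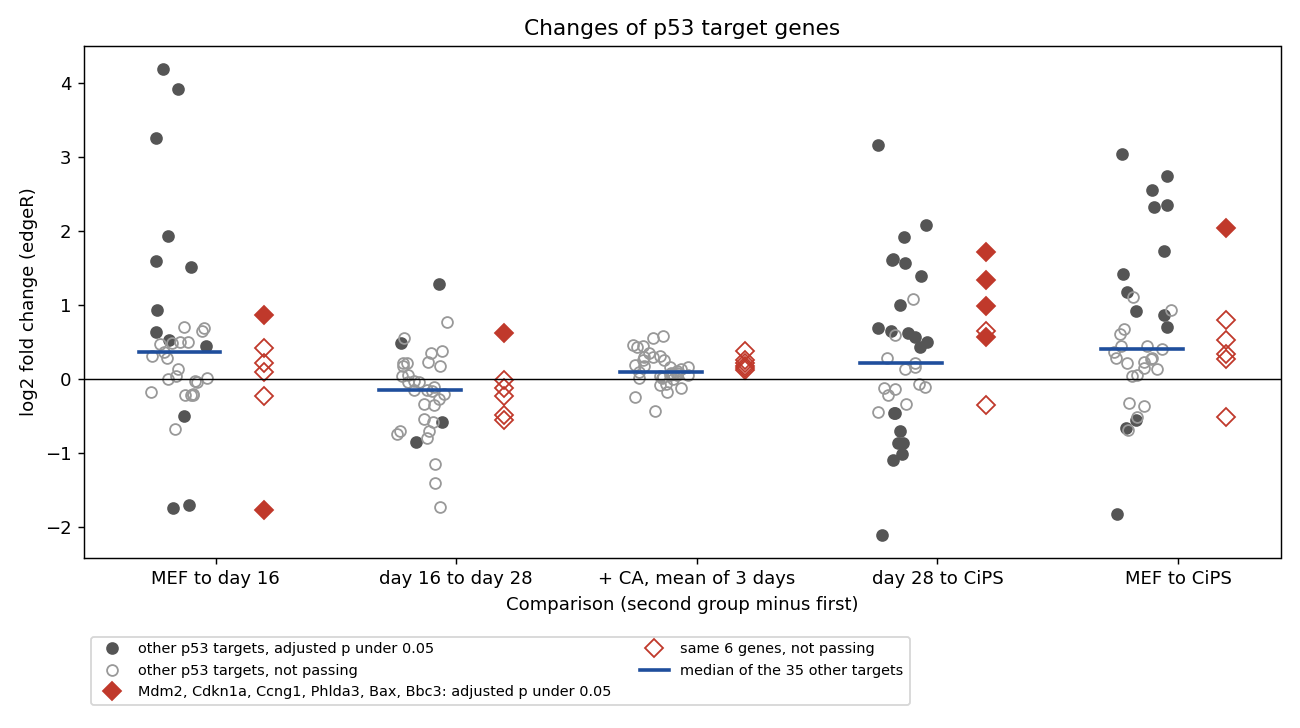
Log2 fold changes of p53 target genes in 5 comparisons: grey circles are the 35 other targets, red diamonds Mdm2, Cdkn1a, Ccng1, Phlda3, Bax and Bbc3, filled where the adjusted p was under 0.05, and blue lines the median of the 35. Medians were 0.37 from MEFs to day 16, -0.14 from day 16 to day 28, 0.10 with crotonic acid, 0.22 from day 28 to the lines and 0.41 from MEFs to the lines.

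Levels of different genes were compared per length, as FPKM. The ratio of Mdm2 to Trp53 was 0.611 in MEFs, 1.55 to 4.04 in the reprogramming libraries, 1.13 to 1.34 in the CiPS lines and 1.89 in ES cells. Mdm2 was thus below Trp53 in the MEF library alone among the 19. The ratio of Cdkn2a to Cdkn2b was 0.270 in MEFs, 0.999 to 2.87 in the reprogramming libraries and 1.95 to 2.34 in the lines. The ratio of Bax to Bbc3 was 9.38 in MEFs, 15.4 to 31.8 in the reprogramming libraries and 6.98 to 9.49 in the lines. Bax was the highest of the 9 genes per length in the MEF library at 226 FPKM, and Cdkn2a the lowest at 15.1 FPKM.

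Replicate numbers carried part of the spread of these genes. In the blocked fit 5 of 9 genes differed between the 2 sets of same-numbered libraries, as did 31.5% of all genes, and all 5 were higher in the first set (16.8% of all genes were). The second set was lower by 0.83 ± 0.16 for Cdkn2b (adjusted p = 0.00430), by 0.77 ± 0.09 for Cdkn2a (adjusted p = 0.000407) and by 0.52 ± 0.08 for Ccng1 (adjusted p = 0.00115). It was lower by 0.48 ± 0.08 for Cdkn1a (adjusted p = 0.00142) and by 0.34 ± 0.09 for Mdm2 (adjusted p = 0.0133). Cdkn1a, Ccng1, Cdkn2a and Cdkn2b were higher in the first library in 7 of 7 groups, as were 12.8% of genes. Summed fibroblast markers were higher in the first library in 6 of 7 groups, endoderm markers lower in 7 of 7 and proliferation markers lower in 6 of 7; the part of cell composition in the difference was not tested.

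Genes with the most similar pattern were found by Pearson correlation of log2(CPM + 0.5) group means over the 11 conditions, among 11865 genes, as a description. The conditions share a lineage and the 19 libraries. The top gene was Hnrnpl for Trp53 (r = 0.994), Qtrt2 for Mdm2 (0.985), Ak1 for Cdkn1a (0.988) and Tnfrsf10b for Ccng1 (0.968). It was Aen for Bax (0.916), Tk1 for Bbc3 (0.985), Galnt3 for Cdkn2a (0.973) and Usp40 for Cdkn2b (0.990). Among the 3 most similar genes of each member, those on the p53 target list were Ak1, Tnfrsf10b and Aen, just named, Trp53inp1 for Mdm2 (0.984), Zmat3 for Ccng1 (0.931) and Dcxr for Cdkn2a (0.969).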

How the data were processed

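RNA sequencing of mouse cells gave 20 samples, and 19 libraries were analysed; the BrdU line was not analysed here, and 1 column of per-sample values in the tables was left aside. Gene counts, deposited by the authors as whole numbers under Ensembl identifiers, were used for all tests. Levels between genes used FPKM, which the authors normalized per length. Per the labels' protocols, RNA came from a Qiagen mini kit and libraries from the NEBNext Ultra kit; the sources used here give no aligner, counter, genome build or strand. Of 47643 identifiers 419 had no symbol.

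Counts were tested with edgeR 4.0.16 (R 4.3.3; TMM factors, filterByExpr with a minimum count of 10, quasi-likelihood F test, 2-sided, adjusted p under 0.05). The 14 reprogramming libraries were fitted together (17387 genes), and all 19 libraries (19597 genes, 3 CiPS lines as 1 group) for MEF, CiPS and ES comparisons. CPM used TMM factors of all 19 libraries. Alternatives were DESeq2 1.42.0, limma 3.58.1 (voom, and log2(FPKM + 1) or log2(FPKM + 0.1) with a mean FPKM of at least 1), other scalings, no filter, compared groups alone, libraries left out and the replicate block. The test was tried on simulated counts.

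Deviations of same-numbered libraries from their group means correlated at 0.258 to 0.578 over all 21 pairs of groups, so the numbers were taken to pair the libraries; the pairing comes from the data, since the labels mark second libraries but name no shared culture or day. The biological coefficient of variation was 23.0%, and 14.3% with the block. Replicates differed by more than counting error, with a chi-squared per degree of freedom from 5.62 in the crotonic acid lines to 111 at day 16. It was 22.4 to 53.9 in the other reprogramming groups, so the day 16 libraries agreed least. The members and gene lists were chosen with earlier results of these data known. All 9 genes are described; from each list, at most 3 called genes with the smallest adjusted p are named, or 6 of the p53 targets. Promoter excerpts come from RefSeq (GRCm38.p6), matched by symbol for all 9 genes. Cdkn2a and Cdkn2b share no exact run of 75 bases. In GENCODE M21 Bax shares 192 exon bases with Gm45808 and Cdkn1a shares 273 with a gene on the other strand, and reads there are uncertain. Cdkn1a and Mdm2 also share exact runs of 75 bases, on either strand, with many other genes. Cdkn1a shares 102 of 3547 runs with Syt11, Mdm2 28 of 5422 with Cltc, and Trp53 47 of 4330 with Trp53-ps. Reads in these stretches are uncertain too. Some genes that these rules would name are not reported here.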

Additional observations from a re-analysis of the deposited data

How the results depend on the processing

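Counts of the 9 genes called changed as follows, and other settings moved them by 1.5 times or less. The 4 genes from MEFs to day 16 became 1 with only the compared groups fitted, and 3 with both liver libraries left out, with limma-voom and with log2(FPKM + 1), filtered or not. The 0 genes at day 20 became 1 with the replicate block, and the 0 at day 24 became 1 without the filter, with the block, and with the block and without both libraries that held liver transcripts. The 1 gene at day 28 became 0 with RLE factors, library totals, log2(FPKM + 1) without a filter, the compared groups alone or both liver libraries left out, 2 without the filter or with DESeq2, 5 with the block and 3 with the block and without the liver libraries. The mean effect of crotonic acid went from 0 genes to 1 without the filter. From MEFs to CiPS lines 3 genes became 6 with library totals and 7 with the compared groups alone. The cause of these changes was not tested. Leaving out 1 library in turn gave 4 to 4 genes from MEFs to day 16, 0 to 1 from day 16 to day 28, 5 to 6 from day 28 to CiPS lines, 3 to 4 from MEFs to CiPS lines, and 0 in the other comparisons. From MEFs to day 16 the genes called changed although their number did not. Without the first day 16 library Mdm2 (change of 0.45) left the set and Cdkn2b (change of -1.74) joined it. The replicate block changed no other call of a member. No member reversed its direction past the threshold. Bulk RNA, groups of 1 or 2 libraries and the sum of INK4A and ARF limit these results.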
